A study of Drosophila melanogaster with 9 samples.

Results

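The 9 genes described here, Cp36, Cp38, Cp7Fa, Cp7Fb, Cp7Fc, Cp18, Cp15, Cp19 and Cp16, encode the major chorion proteins of Drosophila melanogaster. They were chosen by name and not by any measured value, and all 9 were found among the 13937 genes of the deposited expression tables. The study crossed flies so that germline knockdowns (GKD) of Piwi and HP1a, separately and together, arose as sisters of a control, and sequenced rRNA-depleted RNA from the ovaries of females that were 0 to 1 day old and grown at 18 °C. There were 8 RNA libraries, 2 biological replicates in each of 4 groups, and each library was made from pooled ovaries. Library totals ran from 10773406 to 12802084 estimated counts. According to the labels, all groups, Ctrl included, carried UAS-Dcr-2.D and w[1118], both heterozygous, and the GAL4-nos.NGT driver, which acts in the germline. Ctrl carried in addition the balancers Cy and TM3 and no RNAi construct. By its label, the HP1a-GKD group carried UAS-HP1a-RNAi (VDRC line 31994) and Cy, the Piwi-GKD group carried UAS-Piwi-RNAi (VDRC line 101658) and TM3, and double-GKD carried both RNAi constructs and neither balancer. For the single knockdowns these labels are in doubt and appear exchanged, since piwi and HP1a mRNA contradict them (values below). Balancers and RNAi constructs therefore changed together between the groups and cannot be told apart.

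The chorion is the outer layer of the insect eggshell. Its proteins are secreted by the somatic follicle cells that surround the oocyte, at the very end of oogenesis, after the vitelline membrane has been laid down. The genes lie in a pair of clusters, on X and on 3L, which follicle cells amplify by repeated firing of local replication origins before transcription begins. In the ovaries of mature, laying females these mRNAs are among the most abundant, so that they serve as a measure of late egg chambers. Both RNAi constructs were driven in germ cells, whereas the chorion genes are follicle cell genes. In bulk ovary RNA, fewer cells of a type and less RNA per cell cannot be told apart.

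The labels of the single knockdowns were checked with the targeted mRNAs. In Ctrl, piwi stood at 318 and 276 TPM (transcript abundance scaled to gene length and library total), in the HP1a-GKD-labelled libraries at 129 and 134, in the Piwi-GKD-labelled ones at 259 and 229, and in double-GKD at 158 and 147. The mRNA of HP1a stood at 327 and 328 TPM in Ctrl, 342 and 358 in the HP1a-GKD-labelled libraries, 166 and 189 in the Piwi-GKD-labelled ones, and 161 and 172 in double-GKD. The mRNA of each target was thus lowest among the single knockdowns under the other label, and the names given to the deposited tables of these 4 libraries also state the opposite genotype. The study reported the fall of piwi mRNA for its Piwi-GKD group and that of HP1a mRNA for its HP1a-GKD group. It also reported far more changed genes in HP1a-GKD than in Piwi-GKD, whereas here far more changed in the Piwi-GKD-labelled libraries. Relative to the study, the labels of the single knockdowns thus appear exchanged. The groups are called by their labels throughout, as HP1a-GKD-labelled and Piwi-GKD-labelled. Exchanging the labels would exchange the names of their values and change nothing in Ctrl or double-GKD.

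The chorion genes were almost silent in all 4 genotypes. Over 9 genes and 8 libraries, 14 of the 72 values were 0, 45 were at or under 3 estimated counts (50 once rounded to whole counts), and the highest was 2.74 TPM, reached by Cp18 in double-GKD replicate 1. No more than 10 values reached 1 TPM, while the median of all genes lay between 4.30 and 9.52 TPM, depending on the library. Cp18, the most abundant member, was exceeded in mean TPM by 8476 of the 13937 genes. A floor of 3 counts corresponds to between 0.234 and 0.278 CPM (counts scaled to the library total), and per member to between 0.0849 TPM for the long Cp7Fb and 1.12 TPM for the short Cp15. Levels below that floor could not be told from 0 at this depth. Floors and the Poisson intervals given below cover counting error only, since PCR copies of a molecule are counted as separate reads.

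**Figure D1:**
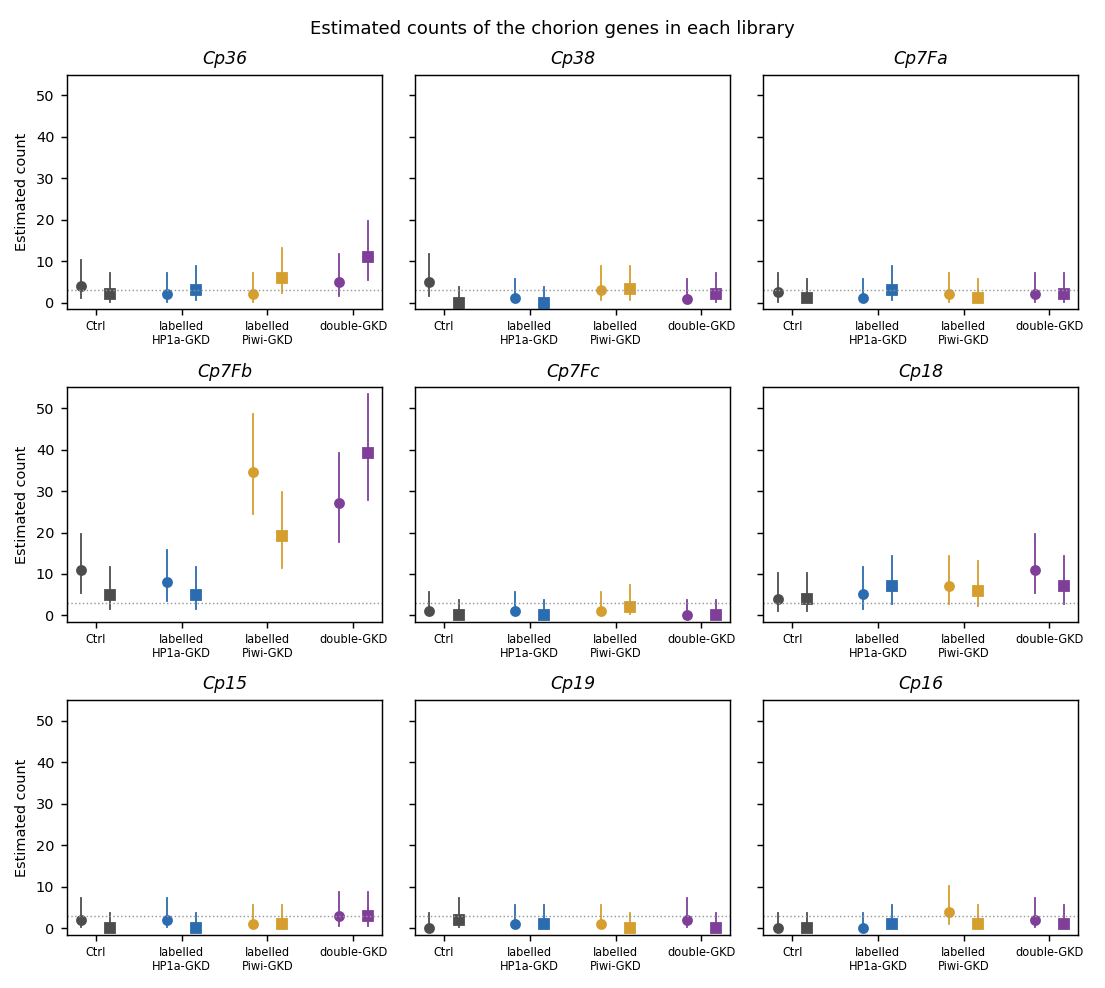
Estimated counts of each chorion gene (vertical axis, reads) in the 8 libraries, with replicate 1 as a circle and replicate 2 as a square, 95% exact Poisson intervals as bars and a dotted line at 3 counts. Cp7Fb alone lies between 19.2 and 39.3 counts in the Piwi-GKD-labelled libraries and in double-GKD, while none of the other 8 genes exceeds 11.0 counts in any library.

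Among the genes of the X cluster, Cp36 and Cp38 encode proteins deposited early in choriogenesis. Cp36 had 4 and 2 estimated counts in Ctrl, 2.02 and 3 in the HP1a-GKD-labelled libraries, 2 and 6 in the Piwi-GKD-labelled ones, and 5 and 11.0 in double-GKD. Both double-GKD libraries lay above both Ctrl libraries, and the 3 other groups overlapped. Cp38 had 5 and 0 counts in Ctrl, 1.01 and 0 in the HP1a-GKD-labelled libraries, 3.03 and 3.38 in the Piwi-GKD-labelled ones, and 0.97 and 2.01 in double-GKD. All of its groups overlapped with Ctrl, whose replicates were the highest and joint lowest of the series for this gene.

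Cp7Fa, Cp7Fb and Cp7Fc lie between CG12116 and Cp36 on X and encode further chorion proteins of the same cluster. Cp7Fa varied between 1.01 and 3.10 counts over the 8 libraries, and Cp7Fc between 0 and 2.08, with no count in 4 libraries, both of double-GKD among them. Cp7Fb had 11.0 and 5.01 counts in Ctrl, 8.02 and 5 in the HP1a-GKD-labelled libraries, 34.5 and 19.2 in the Piwi-GKD-labelled ones, and 27.2 and 39.3 in double-GKD. It was the only member with groups well separated: all 4 libraries of the last pair of groups lay above all 4 of the first pair. In TPM, Cp7Fb averaged 0.248 ± 0.150 (SD, n = 2) in Ctrl, 0.259 ± 0.0248 in the HP1a-GKD-labelled libraries, 1.20 ± 0.476 in the Piwi-GKD-labelled ones and 1.30 ± 0.293 in double-GKD.

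The 3L cluster runs in the order Cp18, Cp15, Cp19 and Cp16, and its genes are used later in choriogenesis than Cp36 and Cp38. Next to Cp18 lie the replication control element and origin from which this cluster is amplified. Cp18 had 4.07 and 4 counts in Ctrl, 5.11 and 7 in the HP1a-GKD-labelled libraries, 7 and 6 in the Piwi-GKD-labelled ones, and 11 and 7 in double-GKD. Every knockdown library was above both Ctrl libraries, but the Poisson intervals of the replicates were wide and overlapped. Cp15 had 2 and 0 counts in Ctrl and in the HP1a-GKD-labelled libraries, 1 and 1 in the Piwi-GKD-labelled ones, and 3.04 and 3.04 in double-GKD. Cp16 had none in Ctrl, 0 and 1 in the HP1a-GKD-labelled libraries, 4 and 1 in the Piwi-GKD-labelled ones, and 2 and 1 in double-GKD. Cp19 had between 0 and 2 counts in all groups, with 0 in 3 libraries. Once rounded to whole counts, only a single value of Cp15, Cp19 and Cp16 exceeded 3, that of Cp16 in replicate 1 labelled Piwi-GKD, and no fold change is given for these 3 genes.

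Replicates were compared with the spread that counting alone gives. For each of the 9 genes in each of the 4 groups, which makes 36 pairs of replicates, the 95% Poisson intervals overlapped in 36 of 36. At so few counts the intervals are wide, and for most pairs an overlap could hardly fail. It does not show that replicates varied by counting alone. Yet a replicate pair such as 5 and 0 counts of Cp38 in Ctrl, or 34.5 and 19.2 of Cp7Fb in the Piwi-GKD-labelled libraries, shows how far apart single values lay. Of the 72 values, 27 were not whole (by over 0.005), since the counts are expected numbers of reads and a read that fits more than 1 transcript is divided between them.

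Ordered by mean TPM over 8 libraries, Cp18 (1.36) came first, followed by Cp7Fb (0.750), Cp15 (0.482), Cp36 (0.416), Cp16 (0.375), Cp7Fa (0.194), Cp38 (0.182), Cp19 (0.181) and Cp7Fc (0.0606). Ranges over libraries overlapped between all 8 pairs of neighbours in this order. Cp18 was above Cp7Fb in 7 of 8 libraries, the exception being double-GKD replicate 2, where Cp7Fb stood at 1.51 and Cp18 at 1.33 TPM. Cp15 was above Cp36 in 4 of 8 libraries. The order pools the groups, and in Ctrl alone the mean of Cp7Fb (0.248 TPM) was below those of Cp15 (0.300) and Cp36 (0.264).

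**Figure D2:**
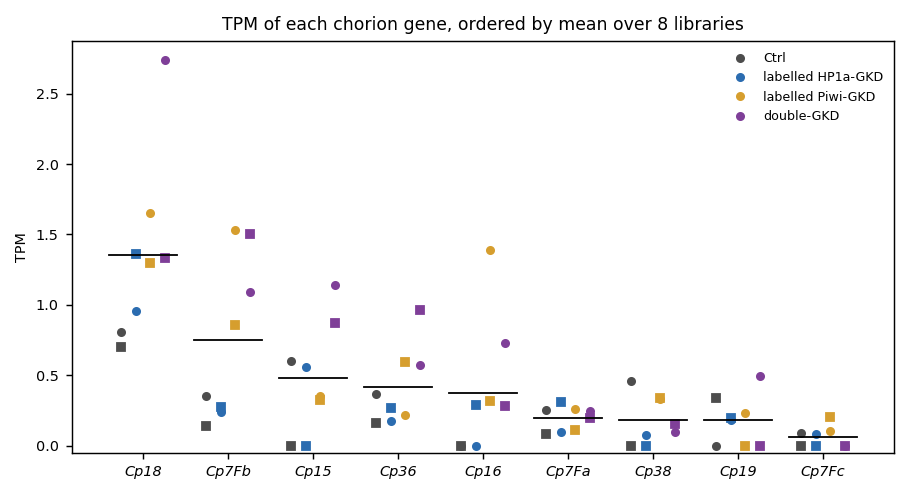
TPM of each chorion gene (vertical axis) in the 8 libraries, ordered by the mean over all libraries (black line), with colours for the groups, circles for replicate 1 and squares for replicate 2. Means run from 1.36 for Cp18 down to 0.0606 for Cp7Fc, and the ranges of neighbouring genes overlap.

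Summed over the 9 genes, Ctrl had 29.6 and 14 estimated counts, with 95% Poisson intervals of 20.2 to 42.8 and 7.65 to 23.5. The libraries labelled HP1a-GKD had 21.2 (13.0 to 32.1) and 20.1 (12.2 to 30.9), the Piwi-GKD-labelled ones 55.7 (42.3 to 72.7) and 39.6 (28.6 to 54.5), and double-GKD 53.3 (39.7 to 69.3) and 65.3 (50.2 to 82.8). All sums of the last pair of groups lay above those of the other 4 libraries, but several of the intervals overlapped. That of Ctrl replicate 1 overlapped with those of both Piwi-GKD-labelled libraries and of double-GKD replicate 1, and those of both HP1a-GKD-labelled libraries overlapped with that of replicate 2 labelled Piwi-GKD. Cp7Fb supplied between 24.9% and 61.9% of the summed count of a library. Without Cp7Fb, the other 8 genes together had 18.5 and 8.99 counts in Ctrl, 13.2 and 15.1 in the HP1a-GKD-labelled libraries, 21.2 and 20.5 in the Piwi-GKD-labelled ones, and 26.1 in each double-GKD library. As with the 9-gene sums, those of the last pair of groups lay above those of the other 4 libraries. Per library total they ran from 1.78 to 2.42 CPM, against 0.702 to 1.51. Intervals of these 8-gene sums overlapped between the groups, but overlap of wide intervals does not show that the groups were equal. The 4 genes on 3L ran from 5.94 counts in Ctrl replicate 2 to 18.0 in double-GKD replicate 1, and the 5 genes on X from 8.06 in Ctrl replicate 2 to 54.3 in double-GKD replicate 2.

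Comparison with Ctrl asked whether loss of HP1a or Piwi from germ cells went with a change of late follicle cell transcripts. Per library total, 1 of 9 chorion genes (Cp18) lay above both Ctrl libraries in both libraries labelled HP1a-GKD, where 18.3% of all genes with a count did so. In the Piwi-GKD-labelled libraries these were 4 of 9 (Cp16, Cp18, Cp7Fb and Cp7Fc) against 42.7% of all genes, and in double-GKD 5 of 9 (Cp15, Cp16, Cp18, Cp36 and Cp7Fb) against 41.1%. These counts of members are near the share of all genes. No member lay below both Ctrl libraries in any knockdown, where between 16.9% and 21.7% of all genes did, but a gene at 0 or a few counts in Ctrl has no room to fall.

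In the edgeR quasi-likelihood test, run on all genes with Benjamini-Hochberg adjustment, Cp7Fb was the only chorion gene that passed the filter on low counts, and it passed through the libraries in which it was high, so that its place among the 9346 genes tested is no independent evidence. Cp7Fb rose 3.04-fold in the Piwi-GKD-labelled libraries (edgeR log2 fold change 1.60, SE 0.48, adjusted p 0.023), where 29.3% of genes were higher and 29.1% lower at an adjusted p under 0.05. In double-GKD it rose 3.76-fold (edgeR log2 1.91, SE 0.48, adjusted p 0.011), where 28.1% of genes were higher and 28.1% lower. In the HP1a-GKD-labelled libraries its log2 difference from Ctrl was -0.32 (SE 0.55, edgeR adjusted p 0.89), where 0.877% of genes were higher and 0.492% lower. A single gene that rose among so many is not a result about the chorion genes as a group.

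The rise of Cp7Fb rested on few reads and on single libraries. Without Ctrl replicate 2, the lower of the controls, the log2 fold change was 1.14 in the Piwi-GKD-labelled libraries (edgeR adjusted p 0.12) and 1.45 in double-GKD (edgeR adjusted p 0.063), and neither passed the threshold. Without replicate 1 labelled Piwi-GKD it was 1.14 (edgeR adjusted p 0.15) and without double-GKD replicate 2 it was 1.73 (edgeR adjusted p 0.054). DESeq2 gave a log2 difference of 1.62 in the Piwi-GKD-labelled libraries, at an adjusted p of 0.052. The ratio of mean TPM was larger than the fitted ratio, 2.27 on the log2 scale in the Piwi-GKD-labelled libraries and 2.39 in double-GKD. TPM divides by the effective length, which Salmon set for Cp7Fb anywhere between 1404 and 2475 bases depending on the library. The lengths of Cp15, Cp16, Cp18, Cp19, Cp36 and Cp7Fc were the same in all libraries. Yet the TPM ratio was also larger than the ratio fitted without the filter for Cp18 and Cp36. For Cp18 it was 0.97 against 0.54 in the Piwi-GKD-labelled libraries and 1.43 against 1.03 in double-GKD. For Cp36 these were 0.63 against 0.26 and 1.54 against 1.23. The cause of this gap was not tested.

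Between the knockdowns, Cp7Fb was 4.69-fold higher in double-GKD than in the HP1a-GKD-labelled libraries (edgeR log2 2.23, SE 0.49, adjusted p 0.0073), where 25.3% of genes were higher and 25.6% lower. This call was lost without replicate 2 labelled HP1a-GKD (log2 1.93, edgeR adjusted p 0.060). Double-GKD and the Piwi-GKD-labelled libraries did not differ by more than their spread (log2 0.31, SE 0.42, edgeR adjusted p 0.85), where 0.417% of genes were higher and 0.621% lower. The interaction, by which double-GKD departs from the added log2 effects of the single knockdowns, was 0.63 for Cp7Fb (SE 0.69, edgeR adjusted p 0.90), where 0.0535% of genes were higher and 0.214% lower. These comparisons share libraries and are not independent of each other. With 2 libraries against 2, an exact permutation test over samples cannot give a two-sided p under 0.333.

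**Figure D3:**
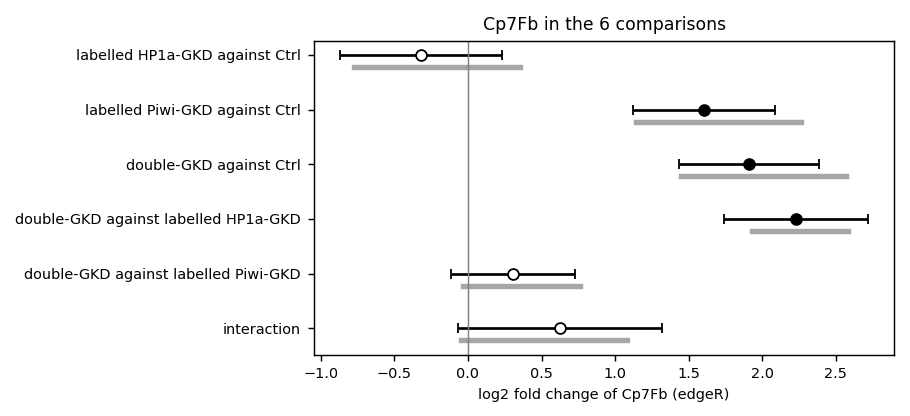
Log2 fold change of Cp7Fb from edgeR (horizontal axis) in the 6 comparisons, with bars of 1 SE, filled points for an adjusted p under 0.05 and grey bars for the range when each library is left out in turn. The 3 filled points lie at 1.60, 1.91 and 2.23, and the grey bars of the other 3 comparisons reach across 0.

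The other 8 members were too low for the filtered test, and the fit without a filter called none of them in any of the 6 comparisons, with no member other than Cp7Fb at an unadjusted p under 0.05. For Cp18 this edgeR fit gave log2 differences from Ctrl of 0.55 (SE 0.56, adjusted p 0.86) in the HP1a-GKD-labelled libraries, 0.54 (SE 0.56, adjusted p 0.55) in the Piwi-GKD-labelled ones and 1.03 (SE 0.54, adjusted p 0.18) in double-GKD. For Cp36 it gave -0.27 (SE 0.86, adjusted p 0.995), 0.26 (SE 0.80, adjusted p 0.86) and 1.23 (SE 0.74, adjusted p 0.25). Against Ctrl, this fit called 19.4% of all genes higher and 20% lower in the Piwi-GKD-labelled libraries, 18.4% and 19.5% in double-GKD, and 0.639% and 0.32% in the HP1a-GKD-labelled libraries. Double-GKD had 16.3% higher and 17.7% lower than the HP1a-GKD-labelled libraries and 0.268% and 0.431% than the Piwi-GKD-labelled ones, and the interaction called 0.0223% and 0.134%.

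Scaling between libraries moved these values little against the size of the Cp7Fb difference. With library totals in place of TMM factors, the median of all genes shifted to 0.24 on the log2 scale in the Piwi-GKD-labelled libraries and to 0.20 in double-GKD, and the called genes split into 3621 higher and 1805 lower, and 3366 higher and 1808 lower, against 2739 and 2723, and 2623 and 2627, with TMM. Cp7Fb then stood at 1.84 and 2.11. Fold changes are given relative to the TMM scale, on which the median of all genes lay at 0.00 in both groups.

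The position of the genes limits what the counts of the X cluster can show. In the Release 6 gene table all 5 X-linked members lie inside the span of CG33223, and the sources used here do not state that counting used the strand, so reads of the overlapping genes cannot be told apart with certainty. CG33223 had between 9.24 and 14.9 counts in all 8 libraries, and its log2 difference from Ctrl in the Piwi-GKD-labelled libraries was -0.18 (edgeR adjusted p 0.73). The 3L members overlap no other gene. Past Cp16 lies Prm, which encodes the muscle protein paramyosin and had 1826 and 1796 counts in Ctrl against 6445 and 4782 in the Piwi-GKD-labelled libraries and 5740 and 5239 in double-GKD.

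Genes of the layer beneath the chorion were low as well. The vitelline membrane is laid down by follicle cells before choriogenesis, and its 8 listed genes summed to 19.5 and 3.17 TPM in Ctrl, 5.49 and 4.57 in the HP1a-GKD-labelled libraries, 6.18 and 6.26 in the Piwi-GKD-labelled ones, and 8.13 and 8.48 in double-GKD. Ctrl replicate 1 stood apart: Vm34Ca, a structural protein of this layer, had 5.49 TPM there and 0 in Ctrl replicate 2, Vm26Aa 3.10 and 0, and Vm32E 2.97 and 0. The same library had 29.6 summed counts of the chorion genes against 14 in Ctrl replicate 2, and how far the pair of controls differed in the stage of their egg chambers was not tested. Only 2 of the 8 genes, Fcp3C and psd, were tested. None rose, and psd (palisade) fell in the Piwi-GKD-labelled libraries (log2 -1.39, edgeR adjusted p 0.040), from 2.09 and 0.759 TPM in Ctrl to 0.955 and 0.468. In these libraries the log2 difference of Fcp3C was 0.68 (edgeR adjusted p 0.094). With library totals in place of TMM, none of the list fell and Fcp3C was called higher, so the direction of this list depends on the scaling. DESeq2 called neither.

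Other eggshell genes changed in both directions. Of 12 listed, 8 were tested. In the HP1a-GKD-labelled libraries 0 were called, although DESeq2 called 1 lower there. In the Piwi-GKD-labelled ones 3 rose and 5 fell, and in double-GKD 2 rose and 5 fell. Median log2 fold changes were -0.24, -2.24 and -1.87 in the same order, where the median of all genes was 0.00. Of all genes tested, 29.3% rose and 29.1% fell in the Piwi-GKD-labelled libraries, and 28.1% rose and 28.1% fell in double-GKD. dec-1, which follicle cells express from mid-oogenesis and whose products enter the eggshell, rose from 6.63 and 5.15 TPM in Ctrl to 30.8 and 24.0 in the Piwi-GKD-labelled libraries (log2 1.86, SE 0.10, edgeR adjusted p 1.7e-05) and 27.4 and 22.3 in double-GKD. yellow-g, a gene needed for a rigid eggshell, rose in the Piwi-GKD-labelled libraries (log2 1.29, edgeR adjusted p 0.018), while the log2 difference in double-GKD was 0.93 (edgeR adjusted p 0.065). tsl, needed in follicle cells at the egg poles for terminal patterning, rose in both groups (log2 1.47 and 0.96). fs(1)M3, whose product is part of the eggshell, fell from 114 and 109 TPM in Ctrl to 12.3 and 12.2 in the Piwi-GKD-labelled libraries (log2 -3.58, edgeR adjusted p 5.0e-06) and to 11.5 and 11.7 in double-GKD. On the log2 scale clos fell by 6.08 and fs(1)N fell by 4.15 in the Piwi-GKD-labelled libraries. The list was not split by the cells that express its genes. In these libraries and in double-GKD, 4 of 5 germline markers fell as well (below). The remaining eggshell genes that fell were ndl and Pxt. From Ctrl to the Piwi-GKD-labelled libraries, ndl went from 17.2 and 13.2 TPM to 6.60 and 5.29. Pxt went from 96.4 and 88.8 to 19.9 and 17.2. In which cells the 5 eggshell genes that fell were expressed was not tested. Their fall is thus not a result about follicle cell genes or about germline genes.

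**Figure D4:**
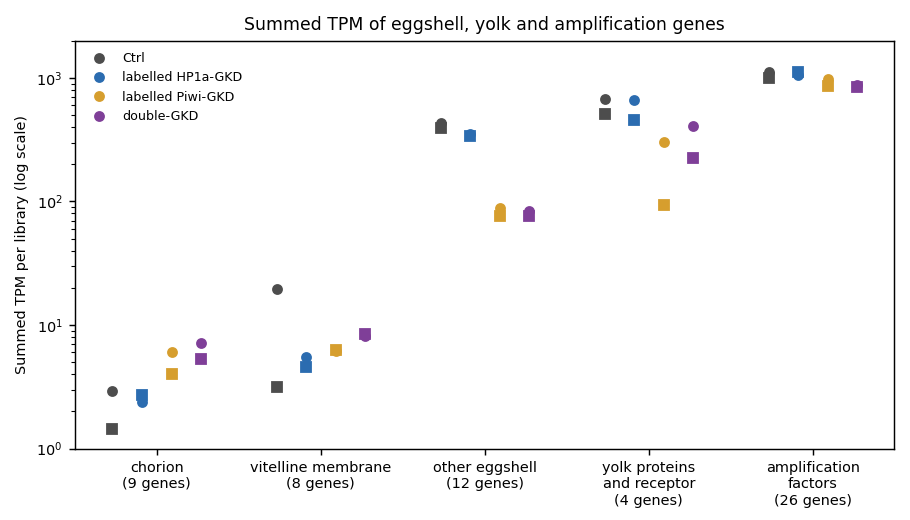
Summed TPM (vertical axis, log scale) of the 9 chorion genes and of 4 other gene lists in each library, with colours for the groups, circles for replicate 1 and squares for replicate 2. The chorion sum runs from 1.43 to 7.11 TPM, below the sums of the other eggshell, yolk and amplification lists in all libraries, and the vitelline membrane sum of Ctrl replicate 1 (19.5) lies above the other 7.

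Yolk uptake precedes choriogenesis. yl, the yolk protein receptor of the oocyte, fell from 497 and 459 TPM in Ctrl to 60.6 and 49.1 in the Piwi-GKD-labelled libraries (log2 -3.53, edgeR adjusted p 8.3e-06) and to 58.3 and 64.2 in double-GKD. The 3 yolk protein genes, which fat body and follicle cells express, passed the test in no comparison. Their replicates were far apart: Yp1 stood at 46.0 and 11.9 TPM in Ctrl, 64.3 and 14.9 in the HP1a-GKD-labelled libraries, 96.5 and 15.6 in the Piwi-GKD-labelled ones, and 143 and 60.2 in double-GKD, so that replicate 1 was the higher in each group.

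Genes listed for chorion gene amplification, replication factors and regulators alike, were expressed in all libraries. All 26 listed genes were tested. None was called in the HP1a-GKD-labelled libraries, although DESeq2 called 1 lower there. In the Piwi-GKD-labelled ones 0 rose and 19 fell, and in double-GKD 0 rose and 18 fell. Medians on the log2 scale were -0.03, -0.51 and -0.53 in the same order, where the median of all genes was 0.00. Of all genes, 29.1% and 28.1% fell in the latter 2 groups. With library totals in place of TMM, 13 and 15 fell and none rose. RnrL, the large subunit of ribonucleotide reductase and the most abundant of the list, fell from a mean of 103 ± 4.31 TPM (SD, n = 2) in Ctrl to 73.3 ± 4.14 in the Piwi-GKD-labelled libraries (log2 -0.90, edgeR adjusted p 0.00064). CycE (cyclin E) fell by 1.14 and dup, the Cdt1 protein of replication licensing, by 0.89. The log2 difference of chif, the Dbf4-like protein needed for amplification, was -0.02 (edgeR adjusted p 0.90). These genes also serve ordinary DNA replication in germ cells and follicle cells.

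Some regulators of the latest follicle cell stages rose in the libraries in which Cp7Fb was high. Of 17 listed, 16 were tested: 1 rose in the HP1a-GKD-labelled libraries, 8 rose and 1 fell in the Piwi-GKD-labelled ones, and 7 rose and 1 fell in double-GKD, with medians of 0.20, 0.30 and 0.18 on the log2 scale, beside 0.877%, 29.3% and 28.1% of all genes that rose in these groups and a median of all genes of 0.00. Oamb, the octopamine receptor of follicle cells that acts in ovulation, rose from 1.87 and 1.85 TPM in Ctrl to 3.59 and 4.12 in the HP1a-GKD-labelled libraries (log2 0.99, edgeR adjusted p 0.033), 10.3 and 9.59 in the Piwi-GKD-labelled ones (log2 2.01, edgeR adjusted p 5.1e-05) and 11.7 and 8.61 in double-GKD. sim, a transcription factor of the follicle cells of mature egg chambers, rose by 2.13 and 2.23 on the log2 scale in the last pair of groups, and Mmp2, a matrix metalloproteinase of ovulation, by 1.93 and 2.08. ttk, the most abundant of the list and a repressor that follicle cells use at the switch to amplification, was within its spread (log2 -0.20 and -0.13, edgeR adjusted p 0.19 and 0.40). slbo and mirr passed the test in neither of these groups. GATAe was too low for the test, with group means between 0.0465 and 0.194 TPM. The list as a whole thus did not move in 1 direction. With library totals in place of TMM none of the list fell. Several of these genes are also expressed in other tissues.

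Markers of other cell types moved in the same libraries, and their part in the rise of Cp7Fb was not tested. In the Piwi-GKD-labelled libraries and in double-GKD, 7 of 7 muscle sheath markers, 4 of 4 fat body markers and 2 of 2 hemocyte markers rose in each. Summed muscle marker TPM ran from 2537 to 2688 in Ctrl, from 2913 to 3168 in the HP1a-GKD-labelled libraries, from 8937 to 11189 in the Piwi-GKD-labelled ones and from 8257 to 10132 in double-GKD. The fat body sums ran from 50.7 to 62.7, 74.1 to 99.7, 364 to 685 and 337 to 410 TPM in the same order of groups, and the hemocyte sums from 12.8 to 14.8, 12.1 to 12.7, 82.8 to 104 and 54.5 to 78.0. Of 5 germline markers, 4 fell in both groups (aub, bam, osk and otu), and their summed TPM with nos went from between 1272 and 1277 in Ctrl to between 1068 and 1089, 254 and 264, and 244 in both double-GKD libraries. nos passed the test in the Piwi-GKD-labelled libraries (log2 5.95, SE 1.80, edgeR adjusted p 0.024) through their replicate 2 alone, which had 27.3 TPM, while the other 7 libraries had between 0.0501 and 0.417. Of 5 follicle cell markers, Fas3 and cv-2 rose in both groups and tj, slbo and mirr did not pass the test. Their summed TPM ran from 66.4 to 82.0 in Ctrl, 86.4 to 86.5, 214 to 295 and 255 to 295. Fas3 was the largest part of this sum in all libraries. It stood at 41.3 and 34.1 TPM in Ctrl, 48.2 and 55.5 in the HP1a-GKD-labelled libraries, 237 and 167 in the Piwi-GKD-labelled ones, and 233 and 201 in double-GKD. The spermatheca markers Send1 and Send2 summed to at most 0.679 TPM in any library, with at least 1 of them at 0 in 4 libraries. In the HP1a-GKD-labelled libraries no marker of these lists passed the edgeR test, while DESeq2 called 1 of the 4 fat body markers higher. The sums of muscle, fat body and follicle cell markers lay above both Ctrl libraries there, and those of germline and hemocyte markers below.

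Over 8 libraries, the genes whose log2(TPM + 1) followed the mean of the 9 chorion genes most closely, among 8760 other genes with a mean of at least 1 TPM, were ush (Pearson r 0.997), CG13001, pdgy, Atg18a, LRR, Fer2LCH, tara, eya, Epg5 and wal (0.993). The points share the same libraries and the same separation of 4 libraries from the other 4, and 2010 of the 8760 genes had an r of at least 0.9. With a pseudocount of 0.1 in place of 1, only ush stayed among the first 10. The order is a description of these 8 libraries.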

How the data were processed

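RNA-seq of ovaries gave 8 libraries, 2 biological replicates for each of 4 genotypes. The DNA library of the series was not used here. After rRNA depletion and single-end sequencing, the authors aligned reads with STAR to the dm3 genome and transcriptome, and Salmon counted them per gene of the BDGP5 annotation. Tool versions and use of the strand are not given in the sources used here. The deposited estimated counts are the reads Salmon expects from a gene, without normalization, and need not be whole. The deposited TPM values divide them by the effective length that Salmon gave each gene and are scaled by the authors to an equal sum in each library. Gene names came from the Release 6 gene table and the supplementary identifiers, and cover 13388 of 13937 genes. vas was not matched. Groups are those of the labels.

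For the test, estimated counts were rounded. The fit used edgeR 4.0.16, with limma 3.58.1 in R 4.3.3, TMM, filterByExpr, glmQLFit and glmQLFTest, over all 8 libraries and without covariates. The filter left 9346 genes, and a fit without it held 13455. Genes were called at an adjusted p (Benjamini-Hochberg) under 0.05. Alternatives were RLE size factors, library totals, DESeq2 1.42.0, no filter, a replicate block, only the compared groups, each library left out, and the ratio of mean TPM. The code was tested on simulated data. Exact 95% Poisson intervals (scipy 1.17.1) used rounded counts, and the floor was 3 counts. Named were the 9 members, the targets, genes of the lists (the most abundant gene of each plus those a sentence turns on) and the 10 genes most like the mean of the members (pseudocount 1). Members, lists and tests were chosen with earlier results of these data known.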

Additional observations from a re-analysis of the deposited data

How the results depend on the processing

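Of 160 alternative fits for the fold changes of Cp7Fb, Cp18 and Cp36, 148 kept their direction and their side of the threshold. Of 12 ratios of mean TPM, which have no test, 9 kept their direction and lay within 1 SE of the fitted value. The count of chorion genes called higher, 1 as reported, fell to 0 in the Piwi-GKD-labelled libraries under DESeq2, without Ctrl replicate 2 and without replicate 1 labelled Piwi-GKD, in double-GKD without Ctrl replicate 2 or double-GKD replicate 2, and between double-GKD and the HP1a-GKD-labelled libraries without replicate 2 of the latter, so that its range over left-out libraries was 0 to 1 in each; the gene is Cp7Fb throughout. The ratio of mean TPM gave 2.27 and 2.39 for Cp7Fb, against 1.60 and 1.91. Reversals occurred among differences that passed no test: Cp7Fb in the HP1a-GKD-labelled libraries was 0.35 without Ctrl replicate 1 and 0.065 as a TPM ratio, its interaction was -0.044 without Ctrl replicate 1, and its difference between double-GKD and the Piwi-GKD-labelled libraries was -0.032 without replicate 2 of the latter. Cp36 was 0.29 in the HP1a-GKD-labelled libraries without Ctrl replicate 1, and in those labelled Piwi-GKD -0.14 without Ctrl replicate 2 and -0.75 without their replicate 2. The causes of these shifts were not tested. Over left-out libraries, the differences that passed no test ranged for Cp7Fb from -0.77 to 0.35 in the HP1a-GKD-labelled libraries, -0.032 to 0.76 between double-GKD and the Piwi-GKD-labelled libraries and -0.044 to 1.08 in the interaction, and for Cp36 from -0.68 to 0.29 in the HP1a-GKD-labelled and -0.75 to 0.87 in the Piwi-GKD-labelled libraries. Cp7Fb ranged from 1.14 to 2.27 in the Piwi-GKD-labelled libraries, 1.45 to 2.57 in double-GKD and 1.93 to 2.58 between double-GKD and the HP1a-GKD-labelled libraries. Such fits leave 1 library in a group and assume that it varies like the others.

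Over all genes, the counts that moved by more than 1.5 times were those of comparisons with few calls, and the genes lower in the Piwi-GKD-labelled libraries (2723 as reported, 1805 with library totals). In the HP1a-GKD-labelled libraries, 82 rose and 46 fell as reported, against 135 and 98 under DESeq2 and, with 1 library left out, 19 to 83 and 4 to 34. Between double-GKD and the Piwi-GKD-labelled libraries these were 39 and 58, against 102 and 119 under DESeq2, 15 and 26 with only these groups, and 10 to 29 and 4 to 42 with 1 library left out. The interaction called 5 and 20, against 30 and 54 under DESeq2, 3 and 20 with library totals, 3 and 18 with no filter, and 2 to 7 and 8 to 26 with 1 library left out. Replicate numbers are shared by the groups, but nothing in the labels ties them to a common batch. The deviations of same-numbered libraries correlated between -0.0434 and 0.232. Yet Yp1, Yp2 and Yp3 were higher in replicate 1 than in replicate 2 in each group, and the cause of this was not tested. With the replicate block, Cp7Fb was 1.61 in the Piwi-GKD-labelled libraries (edgeR adjusted p 0.016) and 1.98 in double-GKD (edgeR adjusted p 0.0068), no member changed its call, and over all genes 119 rose and 74 fell in the HP1a-GKD-labelled libraries, and 68 and 95 between double-GKD and the Piwi-GKD-labelled libraries. With 45 of 72 values at or under 3 estimated counts, depth limits what can be said of all members. Summed over the libraries Cp7Fb had the most counts, but it too had only between 5 and 39.3 per library.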
